A study of Solanum lycopersicum with 29 samples.

Results

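Anther genes with lower RNA levels in long-term mild heat (LTMH) than at control temperature (CT) in each of 4 tomato lines were described. They are the 150 genes with the lowest maximum of 4 differences, 1 difference per line, chosen by their measured values in these libraries among the 18246 genes with a mean of at least 1 read per 1000000 counted reads (CPM). The deposited count table listed 35092 genes. Each difference was the LTMH mean minus the CT mean of log2(CPM + 0.5), so that the levels in LTMH and CT themselves chose the genes, and the comparison of LTMH with CT is given below as a description, from which nothing is inferred.

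Anthers with polarized microspores came from Micro-Tom plants of 4 lines, with 6 anthers pooled per library. Never ripe is an ethylene-insensitive mutant, 35S:nahG carries a salicylate hydroxylase gene under a constitutive viral promoter and is low in salicylic acid (SA), 35S:asCCD7 carries an antisense construct against the strigolactone biosynthesis gene CCD7, and WT carries none of these. LTMH lasted 8 days, with 34°C in the light, 28°C in the dark and 68% relative humidity. CT had 25°C in the light, 19°C in the dark and 50% relative humidity. The 29 libraries were 3 LTMH and 4 CT libraries each of Never ripe, 35S:nahG and WT, and 4 LTMH and 4 CT libraries of 35S:asCCD7. Values are listed by library number, which for LTMH is 1, 3 and 4 in Never ripe and 2, 3 and 4 in 35S:nahG and WT.

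An anther holds the developing microspores inside several wall layers. The innermost layer, the tapetum, feeds the microspores and secretes the precursors of sporopollenin, the polymer of the outer pollen wall, and it degenerates as pollen develops. In Arabidopsis a short cascade of regulators that includes AMS, MYB103 and MS1 runs the tapetal programme, and enzymes and transporters such as CYP703A2, CYP704B1 and WBC27 carry out wall precursor synthesis and export. Whole anthers were sequenced, and in such bulk samples fewer cells of a type and less RNA per cell cannot be told apart.

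Libraries held from 32273189 to 42353956 counted reads (median 34474482). CCD7 (Solyc01g090660) read higher, not lower, in the antisense line, at 8.03 to 11.9 CPM in 35S:asCCD7 LTMH against 0.509 to 0.744 CPM in WT LTMH and at 7.95 to 19.2 CPM in 35S:asCCD7 CT against 1.10 to 1.68 CPM in WT CT, in counts where reads of the construct and of the gene cannot be told apart. Some libraries stood apart from their group. CT libraries 2 and 4 of 35S:asCCD7 held 0.420 and 0.212 FPKM of CYP703A2, against 14.8 and 30.7 FPKM in the other CT libraries of that line. LTMH library 2 of 35S:asCCD7 held 35.1 FPKM of it, against 0.786 to 5.88 FPKM in the other LTMH libraries. CT library 1 of Never ripe held 377 FPKM, against 9.95 to 67.6 FPKM in the other CT libraries of that line. LAT52, a late pollen gene, was at 23.9 FPKM in Never ripe LTMH library 4, 16.4 FPKM in 35S:nahG LTMH library 2 and 3.23 FPKM in 35S:asCCD7 LTMH library 3, and at most 0.356 FPKM in the other libraries. Differences without the libraries that stood apart in CYP703A2 are given for some of the tapetal genes. No difference between LTMH and CT is given without a library high in LAT52. The part of these libraries in the differences was not tested.

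Lower levels in all 4 lines were common among the 18246 genes, since 2045 of them (11.2%) had 4 negative differences. The 150 genes were the far end of these. Their median difference was −1.52 in Never ripe, −2.41 in 35S:nahG, −1.33 in 35S:asCCD7 and −2.21 in WT, against all-gene medians of 0.17, 0.09, 0.10 and 0.07 in the same lines. Without CT libraries 2 and 4 the median in 35S:asCCD7 was −2.19, without LTMH library 2 it was −1.54, and in Never ripe it was −1.46 without CT library 1. All 150 differences stayed below 0 in each case, a sign that the choice of the genes nearly fixed in advance. All 4 differences were at −1 or below in 91 genes and at −2 or below in 9. The all-gene median of 0.17 in Never ripe became −0.011 with library sizes scaled by TMM (trimmed mean of M-values). With that scaling 4199 genes were lower in all 4 lines and 3891 higher, against 2045 and 6286 with total counts. The medians of the 150 genes were then −1.68 in Never ripe, −2.50 in 35S:nahG, −1.43 in 35S:asCCD7 and −2.27 in WT. Each of the 150 genes was still lower in each line, which their choice also nearly fixed.

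The size of the difference varied between the lines, and no difference between lines was tested. The weakest of the 4 differences belonged to 35S:asCCD7 in 75 genes, Never ripe in 53, 35S:nahG in 15 and WT in 7. The strongest belonged to 35S:nahG in 83 genes, WT in 55, Never ripe in 7 and 35S:asCCD7 in 5. The weakest difference is also the value that ranked the genes. Without CT libraries 2 and 4 the 35S:asCCD7 median was −2.19, near the −2.21 of WT. The counts of weakest and strongest lines were not recomputed without those libraries. Between the weakest and the strongest line lay a median of 1.56 log2 units, with 12 genes under 0.5 and 25 genes over 3. At the edge of the list, the maximum of the 4 differences was −0.78 for Solyc06g068040, −0.78 for Solyc12g005660 and −0.77 for Solyc02g085220 inside it. Just outside it were Solyc09g059240 at −0.77, Solyc12g056450 at −0.77 and Solyc07g054740 at −0.76.

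**Figure D1:**
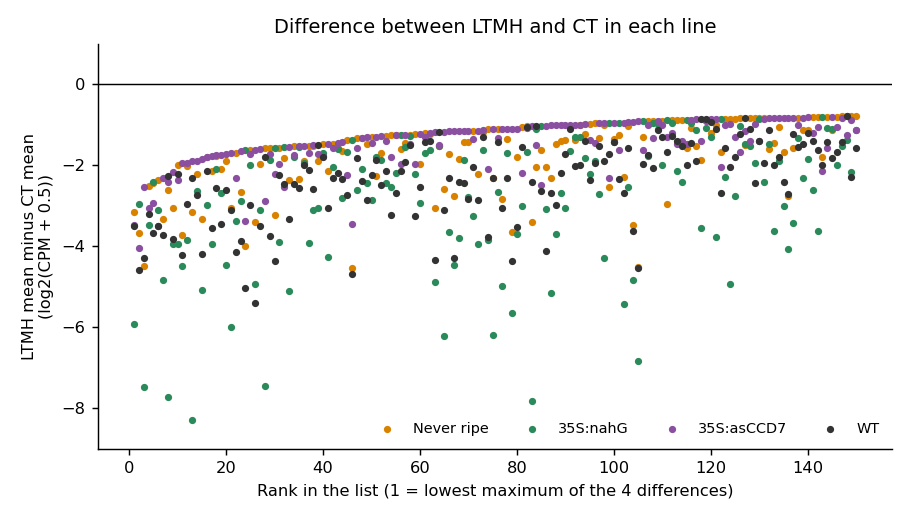
The vertical axis shows the LTMH mean minus the CT mean of log2(CPM + 0.5) for each of the 150 genes in each line, and the horizontal axis the rank in the list. The upper edge is mostly 35S:asCCD7 (75 genes) and Never ripe (53 genes), and the lowest points, down to −8.30, are 35S:nahG.

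Together the 150 genes took 0.366% to 2.0% of the counted reads in Never ripe LTMH, against 2.77% to 4.92% in Never ripe CT. In 35S:nahG the share was 0.510% to 1.25% in LTMH and 8.79% to 11.4% in CT. In 35S:asCCD7 it was 0.420% to 0.892% in LTMH and 1.09% to 4.47% in CT, and in WT 0.533% to 1.00% in LTMH and 3.08% to 7.70% in CT. No LTMH library reached a CT library of its own line in this share. The shares in LTMH lay in a similar low range in the 4 lines, while those in CT differed more. In CT the share was highest in 35S:nahG and lowest in 35S:asCCD7 libraries 2 and 4 (2.25% and 1.09%). The 6 genes with the most reads took 47.5% to 75.7% of these reads in the CT libraries. By the median CPM of the 150 genes, 35S:nahG CT libraries (26.5 to 38.8) lay within the range of WT CT (19.6 to 40.0).

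**Figure D2:**
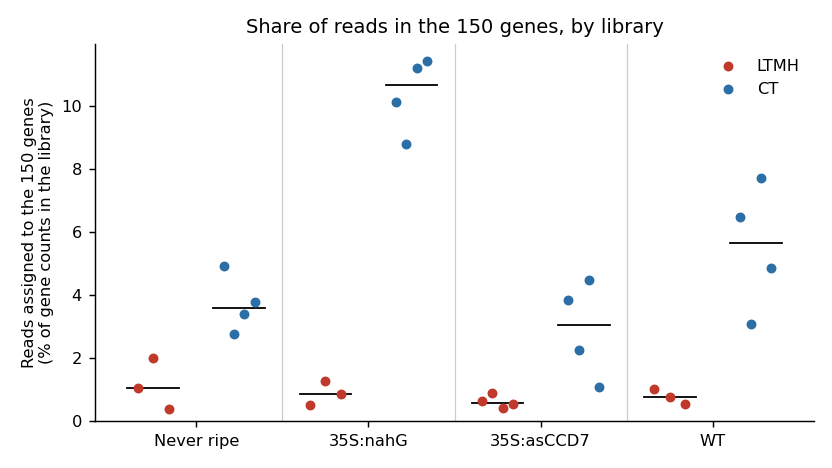
Each point is a library, in LTMH (red) or CT (blue), and the bar is the group median. The vertical axis is the percentage of all counted reads in the 150 genes, and every LTMH library of a line sits below its CT libraries.

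Published lists for pollen development, heat stress response, carbohydrates, light harvesting and some hormones were searched for the 150 genes. The hormone lists searched were those for abscisic acid, brassinosteroids, auxin metabolism, auxin signalling, auxin response and cytokinin metabolism. The jasmonate, salicylic acid, ethylene and gibberellin lists, among others, were not searched. The pollen development list held 10 of them among its 214 genes over the filter, a share of 4.67%, against 0.822% for all genes over the filter. The heat stress response list held none of its 169 genes and the light harvesting list none of its 23. Carbohydrate transport held 2 of 54 genes and carbohydrate metabolism 1 of 107. Among the hormone lists, brassinosteroid metabolism held 2 of 24 genes (8.33%), cytokinin metabolism 1 of 21 (4.76%), abscisic acid response 5 of 240 (2.08%), abscisic acid signalling 1 of 79 (1.27%) and auxin response 1 gene (0.662%), and the other 5 held none. No test of these shares was run. A description was at hand for 25 of the 150 genes, and 125 are given by identifier only.

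Transcriptional regulators of the tapetum were in the list. AMS (Solyc08g062780, ABORTED MICROSPORES), a bHLH factor needed for tapetum function in Arabidopsis, had 173, 196 and 23.2 FPKM in Never ripe LTMH, against 403, 185, 268 and 272 FPKM in Never ripe CT. It had 60.0, 115 and 89.1 FPKM in 35S:nahG LTMH, against 751, 675, 738 and 842 FPKM in 35S:nahG CT. It had 75.2, 101, 26.3 and 60.5 FPKM in 35S:asCCD7 LTMH, against 239, 125, 296 and 30.2 FPKM in 35S:asCCD7 CT. The LTMH libraries of 35S:nahG were all below the CT libraries. In Never ripe LTMH library 3 was above CT library 2, and in 35S:asCCD7 CT library 4 was below 3 LTMH libraries. AMS had 164, 112 and 68.8 FPKM in WT LTMH, against 468, 212, 619 and 327 FPKM in WT CT, without overlap. Its differences were −1.37 in Never ripe, −3.04 in 35S:nahG, −1.01 in 35S:asCCD7 and −1.73 in WT. The value in Never ripe was −1.19 without CT library 1. In 35S:asCCD7 it was −2.02 without CT libraries 2 and 4 and −1.26 without LTMH library 2. The lowest Never ripe LTMH level, 23.2 FPKM, was in library 4, which also held the most LAT52. The other Never ripe LTMH levels, 173 and 196 FPKM, lay around that of CT library 2 (185 FPKM). The Never ripe difference without LTMH library 4 is not given.

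MS1 (Solyc04g008420, MALE STERILITY 1), a PHD-finger factor of the late tapetum, was among the genes with the widest range between lines. It had 0.413, 0.491 and 0.0569 FPKM in Never ripe LTMH, against 45.3, 1.74, 4.76 and 2.82 FPKM in Never ripe CT. It had 0.114, 0.353 and 0.266 FPKM in 35S:nahG LTMH, against 95.8, 108, 118 and 132 FPKM in 35S:nahG CT. The 35S:nahG CT libraries were the highest of the 29 for this gene, and Never ripe CT library 1 came next. MS1 had 0.179, 2.19, 0.322 and 0.0768 FPKM in 35S:asCCD7 LTMH, against 2.48, 0.499, 7.03 and 0.0266 FPKM in 35S:asCCD7 CT. It had 1.66, 2.38 and 0.0430 FPKM in WT LTMH, against 4.76, 4.25, 17.8 and 3.38 FPKM in WT CT. The groups did not overlap in Never ripe, 35S:nahG and WT. In 35S:asCCD7 CT library 4 was the lowest of all 8 libraries. The differences were −3.39 in Never ripe, −7.83 in 35S:nahG, −1.03 in 35S:asCCD7 and −2.40 in WT. They were −2.44 in Never ripe without CT library 1 and −2.66 in 35S:asCCD7 without CT libraries 2 and 4.

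MYB103 (Solyc10g005760), a MYB factor that in Arabidopsis acts between AMS and MS1, was low throughout. It had 0.0709, 0.335 and 0.0367 FPKM in Never ripe LTMH, against 2.55, 0.353, 0.514 and 0.484 FPKM in Never ripe CT. It had 0, 0.0351 and 0.145 FPKM in 35S:nahG LTMH, against 5.85, 10.7, 7.42 and 8.43 FPKM in 35S:nahG CT. The groups were far apart in 35S:nahG. In Never ripe the FPKM of LTMH library 3 was just under that of CT library 2, and in CPM these crossed. MYB103 had 0, 3.57, 0.0346 and 0 FPKM in 35S:asCCD7 LTMH, against 8.67, 0.143, 3.8 and 0.0687 FPKM in 35S:asCCD7 CT. It had 0.572, 0.429 and 0.0739 FPKM in WT LTMH, against 1.59, 2.38, 4.61 and 1.95 FPKM in WT CT. In 35S:asCCD7 the LTMH library 2 was above CT libraries 2 and 4. The differences were −0.81 in Never ripe, −3.62 in 35S:nahG, −1.04 in 35S:asCCD7 and −1.63 in WT. They were −0.43 in Never ripe without CT library 1 and −2.58 in 35S:asCCD7 without CT libraries 2 and 4. At these levels the 0.5 CPM added before the logarithm shrinks the difference.

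WBC27 (Solyc07g065780), an ABC transporter for pollen wall precursors in Arabidopsis, ranked 13. It had 0.127, 0.104 and 0.117 FPKM in Never ripe LTMH, against 47.9, 0.742, 3.2 and 0.699 FPKM in Never ripe CT. It had 0.104, 0.112 and 0.0865 FPKM in 35S:nahG LTMH, against 79.0, 133, 109 and 145 FPKM in 35S:nahG CT. In both lines every LTMH library was below every CT library. WBC27 had 0.105, 7.83, 0.359 and 0.0132 FPKM in 35S:asCCD7 LTMH, against 17.6, 0.257, 34.7 and 0.0959 FPKM in 35S:asCCD7 CT. It had 1.51, 9.58 and 0.236 FPKM in WT LTMH, against 3.25, 28.5, 19.8 and 5.87 FPKM in WT CT. In 35S:asCCD7 CT libraries 2 and 4 lay among the LTMH libraries, and in WT LTMH library 3 was above CT libraries 1 and 4. The differences were −3.14 in Never ripe, −8.30 in 35S:nahG, −1.90 in 35S:asCCD7 and −2.31 in WT. They were −1.90 in Never ripe without CT library 1, and in 35S:asCCD7 −4.82 without CT libraries 2 and 4 and −3.01 without LTMH library 2.

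The other listed tapetal markers were not in the list. CYP703A2, a fatty acid hydroxylase of sporopollenin synthesis, had differences of −5.22 in Never ripe, −9.50 in 35S:nahG and −4.32 in WT but 0.38 in 35S:asCCD7. CYP704B1, a further hydroxylase of that pathway, had −4.16, −9.20 and −3.38 in the same 3 lines and −0.21 in 35S:asCCD7. TDF1 had a mean of 0.832 CPM and was under the filter. MS2 had no reads in any library.

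SHT (Solyc07g015960, spermidine hydroxycinnamoyl transferase) makes polyamine conjugates of the pollen coat in the Arabidopsis tapetum, and it was one of the 6 genes with the highest mean FPKM. It had 100, 331 and 19.3 FPKM in Never ripe LTMH, against 2244, 661, 1195 and 1285 FPKM in Never ripe CT. It had 51.1 to 226 FPKM in 35S:nahG LTMH, against 5059 to 7679 FPKM in 35S:nahG CT. The groups did not overlap in these lines, and the gap was wider in 35S:nahG than in Never ripe, where LTMH library 3 (331 FPKM) came nearest to CT library 2 (661 FPKM). SHT had 52.2, 143, 63.6 and 44.5 FPKM in 35S:asCCD7 LTMH, against 712, 52.5, 1281 and 12.2 FPKM in 35S:asCCD7 CT. It had 183, 154 and 33.8 FPKM in WT LTMH, against 3185, 683, 4459 and 2038 FPKM in WT CT. The groups overlapped in 35S:asCCD7, where CT libraries 2 and 4 were lower than LTMH library 2. Its differences were −3.64 in Never ripe, −5.65 in 35S:nahG, −1.09 in 35S:asCCD7 and −4.35 in WT, and in 35S:asCCD7 the value was −3.66 without CT libraries 2 and 4.

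**Figure D3:**
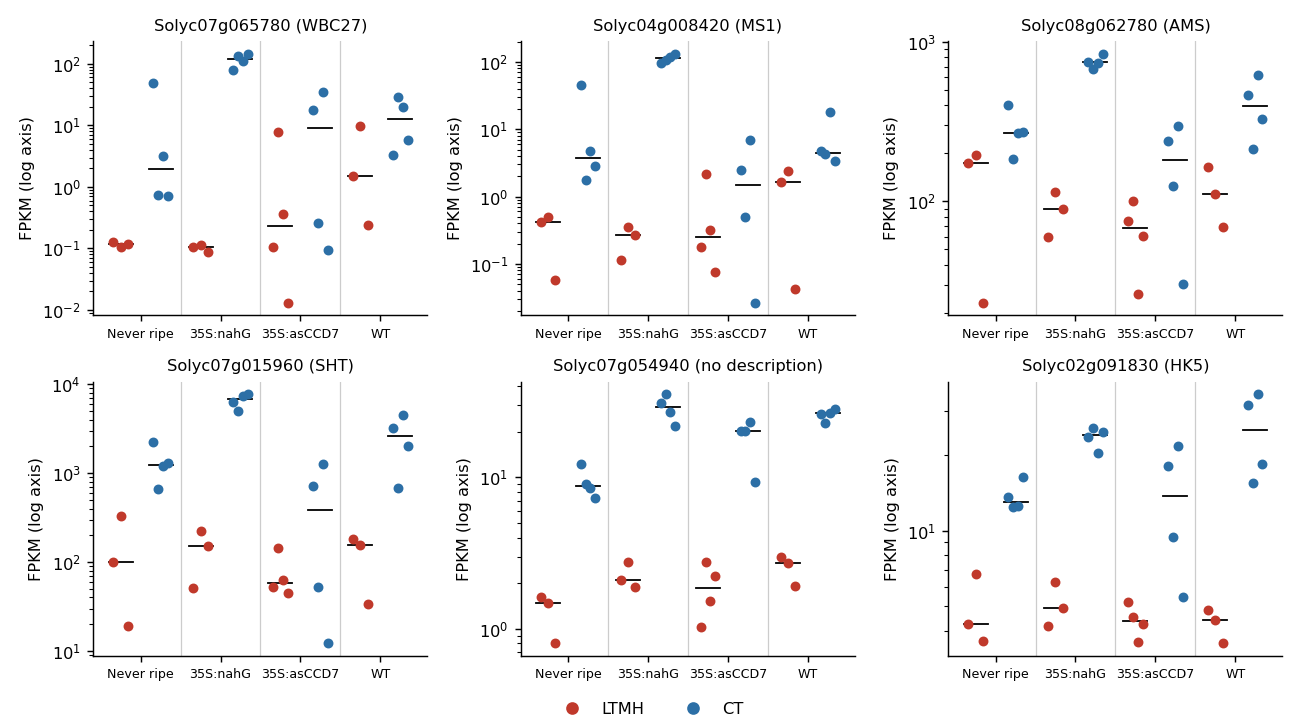
Each panel shows 1 gene, with each library as a point, LTMH in red left of CT in blue for each line, the group median as a bar, and FPKM on a log axis. In the panels of WBC27, MS1, AMS and SHT the CT libraries of 35S:asCCD7 spread over a wide range, and in Solyc07g054940 and HK5 the LTMH and CT libraries of each line are apart.

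Of the 5 genes in the abscisic acid response list, 3 ranked within the first 20. Solyc06g069220, described as an ASPARTIC PROTEASE IN GUARD CELL 1-like protein, ranked 3. It had 44.9, 112 and 8.73 FPKM in Never ripe LTMH, against 2084, 510, 809 and 814 FPKM in Never ripe CT. It had 23.6, 39.3 and 32.7 FPKM in 35S:nahG LTMH, against 5869, 4319, 7663 and 6694 FPKM in 35S:nahG CT. These CT levels of 35S:nahG were the highest of the 29 libraries. The gene had 9.07, 108, 26.9 and 19.4 FPKM in 35S:asCCD7 LTMH, against 530, 209, 724 and 10.3 FPKM in 35S:asCCD7 CT. It had 66.6, 125 and 8.17 FPKM in WT LTMH, against 1281, 189, 1936 and 1072 FPKM in WT CT. Only in 35S:asCCD7 did its groups overlap, through CT library 4. The differences were −4.49 in Never ripe, −7.48 in 35S:nahG, −2.54 in 35S:asCCD7 and −4.28 in WT, and the value in 35S:asCCD7 was −4.36 without CT libraries 2 and 4. The DELLA protein GAI-like gene Solyc10g086370, of a family of gibberellin signalling repressors, had differences of −2.14 in Never ripe, −3.94 in 35S:nahG, −1.77 in 35S:asCCD7 and −3.54 in WT. The abscisic acid 8′-hydroxylase 1-like gene Solyc08g005610, of the enzyme family that breaks down abscisic acid, had −1.88 in Never ripe, −4.45 in 35S:nahG, −1.73 in 35S:asCCD7 and −2.60 in WT.

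The most abundant of the 150 genes had no description. Solyc01g009590 had the highest mean, 8386 FPKM. It had 317, 658 and 114 FPKM in Never ripe LTMH, against 11510, 4143, 7280 and 8883 FPKM in Never ripe CT. It had 292, 296 and 293 FPKM in 35S:nahG LTMH, against 37044, 27687, 40134 and 38643 FPKM in 35S:nahG CT. Its 35S:nahG LTMH libraries were nearly equal, and its 35S:nahG CT libraries were the highest of the series. Solyc01g009590 had 338, 1279, 279 and 236 FPKM in 35S:asCCD7 LTMH, against 3218, 263, 7289 and 78.1 FPKM in 35S:asCCD7 CT. It had 613, 710 and 116 FPKM in WT LTMH, against 17800, 1555, 20823 and 11312 FPKM in WT CT. The difference of −0.91 in 35S:asCCD7 rested on CT libraries 1 and 3, since it was 0.12 without CT library 3 and −3.41 without CT libraries 2 and 4. Over all libraries the differences were −4.51 in Never ripe, −6.82 in 35S:nahG, −0.91 in 35S:asCCD7 and −4.53 in WT.

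Solyc02g078330 came next in abundance and was steadier across lines. It had 1835, 5172 and 238 FPKM in Never ripe LTMH, against 9283, 6571, 6931 and 8069 FPKM in Never ripe CT. It had 521, 3102 and 1675 FPKM in 35S:nahG LTMH, against 11808, 9923, 14613 and 15031 FPKM in 35S:nahG CT. Never ripe LTMH library 3 was the highest LTMH library and stayed below the CT libraries. Solyc02g078330 had 1004, 728, 241 and 468 FPKM in 35S:asCCD7 LTMH, against 10136, 6786, 9380 and 2731 FPKM in 35S:asCCD7 CT. It had 1620, 652 and 533 FPKM in WT LTMH, against 10980, 7668, 12229 and 8771 FPKM in WT CT. No line overlapped, and the differences were −2.36 in Never ripe, −3.09 in 35S:nahG, −3.49 in 35S:asCCD7 and −3.49 in WT. Solyc01g097660, with a mean of 2581 FPKM, had −3.32 in Never ripe, −4.83 in 35S:nahG, −2.31 in 35S:asCCD7 and −3.73 in WT.

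The gene with the lowest maximum was Solyc02g080760, also without a description. It had 7.29, 11.5 and 2.68 FPKM in Never ripe LTMH, against 89.1, 55.4, 65.8 and 80.4 FPKM in Never ripe CT. It had 2.06, 2.86 and 3.68 FPKM in 35S:nahG LTMH, against 156, 559, 196 and 204 FPKM in 35S:nahG CT. Both lines showed separate groups. Solyc02g080760 had 4.88, 236, 4.94 and 2.47 FPKM in 35S:asCCD7 LTMH, against 502, 70.5, 554 and 27.7 FPKM in 35S:asCCD7 CT. It had 30.2, 38.9 and 8.67 FPKM in WT LTMH, against 216, 467, 240 and 219 FPKM in WT CT. LTMH library 2 of 35S:asCCD7, at 236 FPKM, was above CT libraries 2 and 4 of that line and apart from the other LTMH libraries. Differences were −3.14 in Never ripe, −5.91 in 35S:nahG, −3.46 in 35S:asCCD7 and −3.49 in WT. In 35S:asCCD7 the value was −5.19 without CT libraries 2 and 4 and −4.86 without LTMH library 2. The rest of the first 12 were Solyc06g030590, Solyc07g054940, Solyc07g042630, Solyc01g099540, Solyc08g078890, Solyc05g050700 and Solyc01g099960, which have no description, and Solyc05g021390, described as beta-amyrin 28-oxidase-like.

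Solyc07g054940, ranked 4, had a within-group standard deviation of 0.39 log2 units. It had 1.61, 1.48 and 0.802 FPKM in Never ripe LTMH, against 12.3, 9.06, 8.50 and 7.35 FPKM in Never ripe CT. It had 2.09, 2.76 and 1.89 FPKM in 35S:nahG LTMH, against 31.2, 35.3, 27.2 and 21.7 FPKM in 35S:nahG CT. LTMH libraries reached at most 2.76 FPKM in these lines. Solyc07g054940 had 1.03, 2.78, 1.52 and 2.22 FPKM in 35S:asCCD7 LTMH, against 20.4, 20.4, 23.1 and 9.35 FPKM in 35S:asCCD7 CT. It had 2.99, 2.71 and 1.92 FPKM in WT LTMH, against 26.4, 22.9, 26.5 and 28.2 FPKM in WT CT. No line overlapped. The differences were −2.50 in Never ripe, −3.47 in 35S:nahG, −3.04 in 35S:asCCD7 and −3.20 in WT.

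The sugar lists held 3 of the genes. SWEET11c (Solyc06g072620), of a family of sugar transporters, had 1.72, 2.27 and 2.39 FPKM in Never ripe LTMH, against 12.8, 6.76, 6.35 and 9.15 FPKM in Never ripe CT. It had 1.49, 1.68 and 1.23 FPKM in 35S:nahG LTMH, against 21.9, 16.5, 21.1 and 16.3 FPKM in 35S:nahG CT. It had 0.434, 4.69, 1.86 and 3.87 FPKM in 35S:asCCD7 LTMH, against 22.7, 13.0, 14.4 and 5.30 FPKM in 35S:asCCD7 CT. These lines showed no overlap between LTMH and CT. SWEET11c had 0.466, 0.404 and 1.37 FPKM in WT LTMH, against 18.1, 12.1, 24.5 and 16.9 FPKM in WT CT, again without overlap. SWEET7b (Solyc12g055870) had differences of −1.24 in Never ripe, −0.94 in 35S:nahG, −1.61 in 35S:asCCD7 and −2.33 in WT, with overlap in each line but WT. The hexokinase gene HK5 (Solyc02g091830), of the enzymes that phosphorylate glucose, had −1.33 in Never ripe, −2.09 in 35S:nahG, −1.32 in 35S:asCCD7 and −2.38 in WT and overlapped in no line.

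The rest of the pollen list genes had differences between −2.43 and −0.82. LRL1 (Solyc12g010170), a bHLH factor, had −1.28 in Never ripe, −2.43 in 35S:nahG, −1.40 in 35S:asCCD7 and −2.15 in WT, without overlap in any line. The peroxidase gene Solyc01g058520 was abundant and nearly even across lines, with −1.35 in Never ripe, −1.41 in 35S:nahG, −0.94 in 35S:asCCD7 and −1.41 in WT. HAP2 (Solyc08g080440), a sperm membrane protein of gamete fusion in Arabidopsis, had −0.90 in Never ripe, −0.94 in 35S:nahG, −1.33 in 35S:asCCD7 and −2.07 in WT. FAB1A (Solyc07g017510), a lipid kinase, had −0.85 in Never ripe, −2.29 in 35S:nahG, −0.99 in 35S:asCCD7 and −1.56 in WT, and the phosphotriesterase family gene Solyc03g053130 had −1.60 in Never ripe, −1.48 in 35S:nahG, −0.82 in 35S:asCCD7 and −1.12 in WT. The remaining 204 genes of that list over the filter included 19 with 4 negative differences and 55 with 4 positive ones on total counts. The 55 were 25.7% of the list, against 34.5% of all genes, a share that depends on the scaling given above.

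The libraries of a group differed more for the 150 genes than for most genes. The median standard deviation within groups was 0.67 log2 units, against 0.16 over all genes, and it was over 1 in 30 of the 150 genes, against 0.789% of all genes. CYP703A2 and CYP704B1, tapetal enzyme genes outside the list, were used to describe this variation. Across 29 libraries, the deviation of each gene from its group mean had a median correlation (Pearson's r) of 0.56 with the mean deviation of this pair, against −0.08 over all genes. The correlation was over 0.5 in 88 of the 150 genes (58.7%, against 4.53% of all genes) and over 0.8 in 12 (8.0%, against 0.241%). Without the 35S:asCCD7 libraries the medians were 0.38 and −0.07 over 21 libraries. The points share library, depth and group sizes, and this measure was chosen after the data had been seen.

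**Figure D4:**
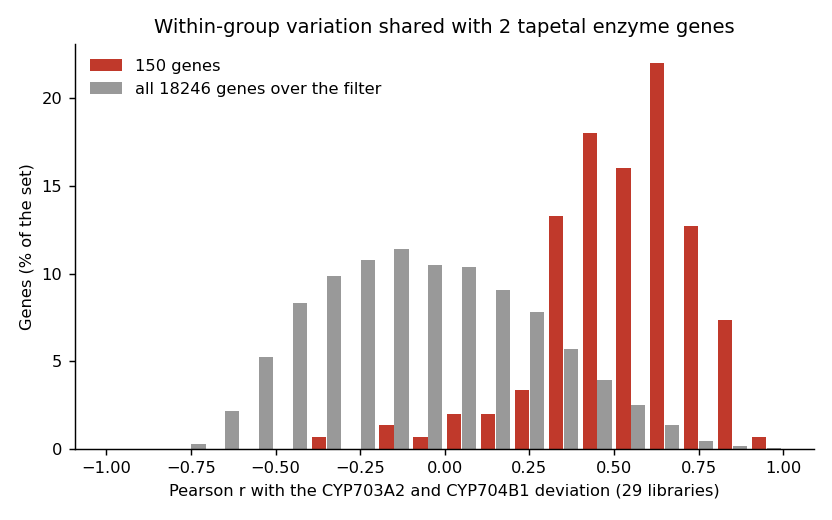
Bars give the percentage of the 150 genes (red) and of all 18246 genes over the filter (grey) by their correlation, over 29 libraries, with the within-group deviation of CYP703A2 and CYP704B1. The 150 genes lie mostly to the right of all genes, with medians of 0.56 and −0.08.

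MS1 had the highest correlation of the 150, at 0.94, and the lowest was −0.36. Of the named genes, Solyc08g080200 reached 0.88, WBC27 0.87, Solyc01g009590 0.84, the aspartic protease-like gene 0.83, SHT 0.80 and MYB103 0.80. AMS had 0.59. The part of the tapetal cell content in the lower LTMH levels of these genes was not tested.

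In a smaller group, 10 of the 150 genes, the correlation with those tapetal genes was 0.2 or less, and in 4 genes it was below 0. The 10 genes were chosen for description after their values were seen. Solyc12g040790, ranked 14, with a correlation of 0.07, had 12.9, 17.4 and 10.2 FPKM in Never ripe LTMH, against 76.7, 76.0, 61.4 and 67.2 FPKM in Never ripe CT. It had 18.4, 18 and 19.1 FPKM in 35S:nahG LTMH, against 131, 125, 117 and 120 FPKM in 35S:nahG CT. It had 34.8, 18.1, 16.6 and 16.8 FPKM in 35S:asCCD7 LTMH, against 76.9, 86.6, 95.9 and 73.5 FPKM in 35S:asCCD7 CT. Its CT libraries 2 and 4 of 35S:asCCD7 were not low, and the groups overlapped in none of these lines. It had 18.6, 13.5 and 11.3 FPKM in WT LTMH, against 104, 92.2, 98.7 and 107 FPKM in WT CT. The inositol-3-phosphate synthase gene Solyc04g054740, of the first step of inositol synthesis, had the lowest correlation (−0.36) and differences of −0.80 in Never ripe, −1.07 in 35S:nahG, −1.56 in 35S:asCCD7 and −1.41 in WT. LET6 (Solyc02g081120), a knotted-1-like homeobox gene, had a correlation of 0.02 and −0.88 in Never ripe, −0.96 in 35S:nahG, −1.21 in 35S:asCCD7 and −1.27 in WT. Both showed separate LTMH and CT libraries in each line.

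All LTMH libraries were below all CT libraries in 125 of the 150 genes in Never ripe (7.32% of all 18246 genes), 137 in 35S:nahG (21.2% of all genes), 50 in 35S:asCCD7 (4.94%) and 142 in WT (17.6%). In all 4 lines at once this held for 43 genes, against 1.02% of all genes. In 67 genes the groups overlapped in 35S:asCCD7 alone, a count for which no share over all genes was computed. Against CT libraries 1 and 3 only, 143 genes were apart in 35S:asCCD7 (11.2% of all genes), and the median difference was −2.19. CT library 4 was below both of these CT libraries in 143 genes and CT library 2 in 138, by medians of −2.02 and −1.11 log2 units. The all-gene median for CT library 4 was 0.13, and the shares of all genes below were not computed. These counts use the values that chose the genes.

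Of the 43 genes with no overlap, 1 was in the pollen list (LRL1), against 9 of the other 107. They include SWEET11c, HK5, LET6, Solyc01g066450 (an alpha/beta-hydrolase superfamily protein), the CASP-like gene Solyc06g072350, the probable linoleate 9S-lipoxygenase 5 gene Solyc01g099180 and the inositol-3-phosphate synthase gene. Their median differences were −1.22 in Never ripe, −1.84 in 35S:nahG, −1.40 in 35S:asCCD7 and −1.67 in WT.

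In edgeR fits of LTMH against CT, genes were called lower where the adjusted p was under 0.05 and the levels differed by 1.5 times or more. In Never ripe 90 of the 150 genes were called (4.32% of all genes), in 35S:nahG 144 of 150 (13.3%), in 35S:asCCD7 71 of 150 (3.08%) and in WT 145 of 150 (8.83%). The count in 35S:asCCD7 was 114 without CT libraries 2 and 4 and between 25 and 117 with 1 library left out at a time. The shares of all genes called in those fits are not given. The fits rest on the contrast that chose the genes, and nothing is read from them.

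Whether the genes differ between a line and WT at both temperatures together was tested with edgeR on the mean of the LTMH and CT groups of each line, which the ranking of the genes did not use. The filter used the mean CPM over all libraries, so that a gene under 1 CPM in a line entered only through the others. This held for 4 of the 150 genes in WT, 6 in Never ripe, none in 35S:nahG and 3 in 35S:asCCD7. The 4 genes under 1 CPM in WT account for 3 of the higher calls in Never ripe, 3 in 35S:nahG and 1 in 35S:asCCD7, which had to read higher than WT and are no test, and no lower call was of a gene under 1 CPM in its own line. The 3 comparisons share the WT libraries. In Never ripe 24 of the 150 genes were called, against 8.51% of all 20895 genes tested, with 13 higher (5.01% of all genes) and 11 lower (3.50%). In 35S:nahG 27 were called, against 12.5% of all 21098 genes, with 18 higher (5.64%) and 9 lower (6.91%). In 35S:asCCD7 15 were called, against 7.39% of all 21079 genes, with 6 higher (4.54%) and 9 lower (2.85%). As shares of the 150 genes these were 16.0% in Never ripe, 18% in 35S:nahG and 10% in 35S:asCCD7, and no test of the shares was run. The median log2 fold change of the 150 genes was −0.13 in Never ripe, 0.18 in 35S:nahG and −0.47 in 35S:asCCD7, against 0.02, 0.00 and 0.01 for all genes. In all, 102 of the 150 genes were called in no line and 4 in all 3. The matching shares over all genes were not computed, and nothing is read from these counts. The genes called in all 3 lines include Solyc07g051980, which was under 1 CPM in WT.

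Within 1 temperature, the libraries are shared with the values that chose the genes, and the counts are given as alternatives. With LTMH libraries only, edgeR called 9 genes in Never ripe (4.74% of all genes), 6 higher (2.64%) and 3 lower (2.10%). With CT libraries only it called 34 (10.6%), 8 higher (6.29%) and 26 lower (4.32%). In 35S:nahG it called 23 in LTMH (9.47%), 11 higher (4.69%) and 12 lower (4.78%), and 55 in CT (16.5%), 37 higher (7.88%) and 18 lower (8.66%). In 35S:asCCD7 it called 8 in LTMH (5.83%), 3 higher (3.91%) and 5 lower (1.92%), and 2 in CT (3.94%), 1 higher (2.33%) and 1 lower (1.61%). Nothing is read from these counts.

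The 4 genes called in each line were Solyc01g066450, Solyc12g009770, Solyc07g051980 and Solyc08g016448. Solyc01g066450, the alpha/beta-hydrolase gene, was lower than WT at both temperatures. It had 6.10, 5.14 and 2.39 FPKM in Never ripe LTMH, against 21.2, 21.1, 19.7 and 21.6 FPKM in Never ripe CT. It had 6.11, 7.61 and 6.82 FPKM in 35S:nahG LTMH, against 15.3, 16.4, 14.3 and 18 FPKM in 35S:nahG CT. It had 5.59, 7.72, 4.63 and 6.48 FPKM in 35S:asCCD7 LTMH, against 24.7, 18.1, 23.9 and 12.2 FPKM in 35S:asCCD7 CT. WT was higher than each of these lines, as it had 18.4, 17.8 and 13.3 FPKM in WT LTMH, against 32.8, 36.0, 36.2 and 36.4 FPKM in WT CT. The log2 fold change against WT was −1.30 (SE 0.15, edgeR adjusted p = 3.49e-05) in Never ripe. It was −1.21 (SE 0.08, edgeR adjusted p = 8.61e-08) in 35S:nahG and −1.14 (SE 0.15, edgeR adjusted p = 0.000102) in 35S:asCCD7. The calls held with each library left out.

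Solyc12g009770 was higher than WT in the 3 lines over both temperatures, although at CT the Never ripe and 35S:asCCD7 libraries overlapped those of WT. It had 0.994, 1.17 and 0.732 FPKM in Never ripe LTMH, against 2.64, 1.86, 2.24 and 2.38 FPKM in Never ripe CT. It had 0.727, 0.717 and 0.484 FPKM in 35S:nahG LTMH, against 3.53, 3.13, 4.14 and 4.00 FPKM in 35S:nahG CT. It had 0.317, 1.11, 0.506 and 0.633 FPKM in 35S:asCCD7 LTMH, against 2.24, 1.61, 2.31 and 1.54 FPKM in 35S:asCCD7 CT. Every LTMH library of the 3 lines was above the LTMH libraries of WT, which had 0.192, 0.226 and 0.149 FPKM in WT LTMH, against 1.74, 1.37, 1.97 and 1.83 FPKM in WT CT. The log2 fold change was 1.37 (SE 0.14, edgeR adjusted p = 1.41e-05) in Never ripe. It was 1.43 (SE 0.14, edgeR adjusted p = 3.66e-06) in 35S:nahG and 0.96 (SE 0.23, edgeR adjusted p = 0.00896) in 35S:asCCD7, and these calls held with each library left out.

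Solyc07g051980 had a mean of 0.437 CPM in WT and passed the filter only through the other lines, so its higher level there is a description with no test. It had 0.976, 2.55 and 0.0787 FPKM in Never ripe LTMH, against 2.29, 3.36, 4.04 and 6.96 FPKM in Never ripe CT. It had 0.105, 0.676 and 0.375 FPKM in 35S:nahG LTMH, against 7.34, 4.33, 8.03 and 7.56 FPKM in 35S:nahG CT. It had 0.484, 0.337, 0.0124 and 0.283 FPKM in 35S:asCCD7 LTMH, against 3.18, 0.281, 4.53 and 0.0981 FPKM in 35S:asCCD7 CT. All 7 WT libraries were under 1 FPKM, as it had 0.0817, 0.0383 and 0.0132 FPKM in WT LTMH, against 0.128, 0.236, 0.809 and 0.139 FPKM in WT CT. The log2 fold change was 4.19 (SE 0.70) in Never ripe, 3.72 (SE 0.52) in 35S:nahG and 2.62 (SE 0.88) in 35S:asCCD7, and the call in 35S:asCCD7 was lost in 11 of 15 fits that left out 1 library, with a log2 fold change of 2.41 without WT LTMH replicate 4.

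Solyc08g016448 went in different directions. It had 3.85, 2.84 and 0.373 FPKM in Never ripe LTMH, against 16.0, 11.5, 13.5 and 14.5 FPKM in Never ripe CT. It had 0.374, 0.734 and 0.573 FPKM in 35S:nahG LTMH, against 1.37, 3.16, 0.942 and 1.14 FPKM in 35S:nahG CT. It had 1.95, 1.15, 0.658 and 1.49 FPKM in 35S:asCCD7 LTMH, against 11.1, 9.88, 7.45 and 5.53 FPKM in 35S:asCCD7 CT. All CT libraries of Never ripe and 35S:asCCD7 were above those of WT, which had 1.28, 0.635 and 0.680 FPKM in WT LTMH, against 3.30, 5.38, 3.07 and 3.91 FPKM in WT CT. Of 35S:nahG CT only library 2 reached the WT CT range. The log2 fold change was 1.64 (SE 0.35, edgeR adjusted p = 0.00336) in Never ripe. It was −0.93 (SE 0.30, edgeR adjusted p = 0.0220) in 35S:nahG and 0.86 (SE 0.24, edgeR adjusted p = 0.0215) in 35S:asCCD7. The last pair of calls were each lost in 2 fits that left out 1 library, with edgeR adjusted p of 0.0797 and 0.0653 at the highest.

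**Figure D5:**
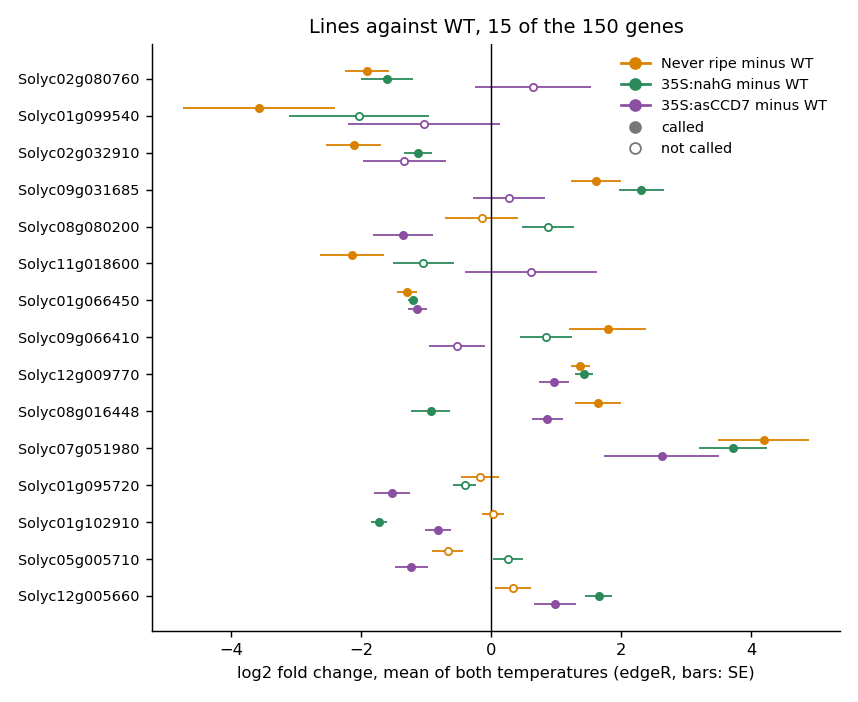
Points give the log2 fold change of each line against WT over both temperatures for the 15 genes that were among the 3 highest or 3 lowest called in a line, with the SE as bars, and filled points were called by edgeR. Solyc01g066450 is lower and Solyc12g009770 is higher in all 3 lines, and Solyc07g051980 and Solyc09g031685 were under 1 CPM in WT, so that their points are a description.

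Further calls follow by line, and no difference between lines was tested. In Never ripe, Solyc07g054940 was lower at −1.22 (SE 0.16, edgeR adjusted p = 8.47e-05). Solyc02g080760, Solyc02g032910 and Solyc11g018600 were lower, at −1.91 (SE 0.34, edgeR adjusted p = 0.00110), −2.12 (SE 0.42, edgeR adjusted p = 0.00200) and −2.14 (SE 0.49, edgeR adjusted p = 0.00533). These 4 calls held with each library left out. Solyc01g099540 was lower at −3.57 (SE 1.17, edgeR adjusted p = 0.0351), which was lost in 8 of 14 fits with a library left out (edgeR adjusted p of 0.179 without WT LTMH replicate 3). The phosphate transporter 1-4-like gene Solyc09g066410 was higher at 1.79 (SE 0.59, edgeR adjusted p = 0.0358). It was lost in 7 of 14 such fits, and without Never ripe LTMH replicate 3 the log2 fold change was 0.72 (edgeR adjusted p = 0.222). Solyc08g078890 was lower at −0.72 (SE 0.22, edgeR adjusted p = 0.0247) and was lost in 3 fits, with an edgeR adjusted p of 0.0709 without WT LTMH replicate 3.

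In 35S:nahG, Solyc01g102910 was lower at −1.73 (SE 0.12, edgeR adjusted p = 1.87e-07), and Solyc02g080760 and Solyc02g032910 were lower at −1.61 (SE 0.40, edgeR adjusted p = 0.00565) and −1.13 (SE 0.22, edgeR adjusted p = 0.00103). Solyc12g005660 was higher at 1.65 (SE 0.21, edgeR adjusted p = 3.74e-05). These 4 calls held with each library left out. Solyc09g031685, with a mean of 0.764 CPM in WT, had log2 fold changes of 1.61 (SE 0.38) in Never ripe and 2.31 (SE 0.35) in 35S:nahG, given as a description.

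In 35S:asCCD7, Solyc01g095720 was lower at −1.53 (SE 0.27, edgeR adjusted p = 0.00135) and Solyc05g005710 at −1.23 (SE 0.26, edgeR adjusted p = 0.00470), and Solyc01g102910 was lower here too, at −0.82 (SE 0.20, edgeR adjusted p = 0.0101). These 3 calls held with each library left out. Solyc08g080200 was lower at −1.36 (SE 0.46, edgeR adjusted p = 0.0488) and was lost in 12 of 15 such fits (edgeR adjusted p of 0.138 without WT LTMH replicate 3). Solyc07g042630 was lower at −1.02 (SE 0.32, edgeR adjusted p = 0.0343) and was lost in 7 (edgeR adjusted p of 0.112 without WT LTMH replicate 2). Solyc12g005660 was higher at 0.98 (SE 0.32, edgeR adjusted p = 0.0441) and was lost in 10 (edgeR adjusted p of 0.115 without WT LTMH replicate 4).

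The tapetal regulators AMS, MS1 and MYB103 were not called by edgeR against WT over both temperatures. That mean can hide differences of opposite sign at CT and LTMH. For each of these genes, all 35S:nahG CT libraries were above all WT CT libraries. For MS1 they had 95.8 to 132 FPKM, against 3.38 to 17.8 FPKM in WT CT. In LTMH the 35S:nahG libraries were within or below the WT LTMH range for these genes. AMS had log2 fold changes of −0.17 (SE 0.40, edgeR adjusted p = 0.790) in Never ripe, 0.25 (SE 0.24, edgeR adjusted p = 0.421) in 35S:nahG and −1.02 (SE 0.41, edgeR adjusted p = 0.0922) in 35S:asCCD7. MS1 had −0.61 (SE 0.92, edgeR adjusted p = 0.659), 0.71 (SE 0.66, edgeR adjusted p = 0.412) and −1.28 (SE 0.86, edgeR adjusted p = 0.310) in the same order of lines. MYB103 had −1.35 (SE 0.62, edgeR adjusted p = 0.122), −0.46 (SE 0.52, edgeR adjusted p = 0.510) and 0.79 (SE 1.06, edgeR adjusted p = 0.629) in these lines. FAB1A in 35S:nahG was under the fold threshold, at 0.46 (SE 0.16, edgeR adjusted p = 0.0308).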

How the data were processed

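RNA of pooled anthers was sequenced in 29 libraries. The authors aligned the reads to the tomato reference ITAG3.2 and deposited a table of raw read counts per gene and a table of FPKM values (fragments per kilobase of gene and per 1000000 mapped). The submitters' processing notes name HISAT2 2.0.5 and featureCounts 1.5.0-p3. The library type did not mark strand, so reads of a gene and of an antisense transcript are pooled. The deposited count columns were used for the gene list and all tests, and the deposited FPKM values for printed levels, since levels of different genes are compared per length. Libraries held 32273189 to 42353956 counts, and replicates with the same number were not taken as pairs. The methods call the libraries of a group biological replicates, and do not say whether their anthers came from separate plants.

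Counts were divided by the library total to give CPM, and 0.5 was added before log2. Tests used edgeR 4.0.16 in R 4.3.3 (quasi-likelihood, TMM, filterByExpr with a minimum count of 10, Benjamini-Hochberg adjustment over all genes tested), each line with WT in a fit of its own. Python 3.11.15, pandas 2.3.3, numpy 2.4.6 and matplotlib 3.10.9 were used for the rest. In simulated counts for the comparisons with WT, 2-fold changes were recovered in 89 of 99 changed genes (89.9%) for Never ripe, 83 of 99 (83.8%) for 35S:nahG and 77 of 96 (80.2%) for 35S:asCCD7, in fits of 20663, 20807 and 20838 genes. The changed genes were drawn at random from all genes tested, and no LTMH effect was simulated. The 150 genes varied more within groups than most genes, so these shares cannot be carried over to them. Alternatives were DESeq2 1.42.0, other scalings, pseudocounts and CPM filters, 1 fit of all 8 groups, a block for replicate number, single temperatures, no fold threshold and single libraries left out. Leaving out CT libraries 2 and 4 of 35S:asCCD7 was chosen after seeing the data. The 150 genes and the gene lists were chosen with earlier results of these data known. Genes named are those ranked 1 to 12, the 3 on each side of the edge of the list, the 6 with the highest mean FPKM, those in the pollen, heat stress and carbohydrate lists, and the 3 highest and 3 lowest called in each line. Other genes named were chosen after their values were seen. A gene is said not to overlap where every LTMH library is below every CT library in CPM. No sequences were used here, and promoter motifs were not analysed here.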

Additional observations from a re-analysis of the deposited data

Results flagged for a closer look

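In groups of 4 libraries, a value was singled out where its gap to the nearest other library was over 0.829 of the range of the group. This held in 27 of 215 groups tested over 43 measures, most of them the FPKM of a named gene. For independent and normally distributed values, chance alone gives about 1 in 20. FPKM values need not be normal, and the genes share libraries and vary together. The count of 27 therefore cannot be set against that rate, and no excess is read from it.

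LTMH library 2 of 35S:asCCD7 was high in 10 genes. It held 236 FPKM of Solyc02g080760 (others 2.47 to 4.94), 17.9 FPKM of Solyc01g099540 (0.199 to 0.917), 52.9 FPKM of Solyc05g050700 (4.86 to 5.85), 456 FPKM of Solyc02g032910 (30.2 to 70.2) and 51.3 FPKM of Solyc11g018600 (0.541 to 1.38). It also held 7.83 FPKM of WBC27 (0.0132 to 0.359), 2.19 FPKM of MS1 (0.0768 to 0.322), 3.57 FPKM of MYB103 (0 to 0.0346), 91.1 FPKM of the phosphotriesterase gene Solyc03g053130 (3.59 to 12.7) and 1279 FPKM of Solyc01g009590 (236 to 338). The same library had 35.1 FPKM of CYP703A2, against 0.786 to 5.88 FPKM in the others of its group.

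CT library 1 of Never ripe was high in 5 genes. It held 65.5 FPKM of Solyc01g099540 (2.48 to 4.74), 47.9 FPKM of WBC27 (0.699 to 3.2), 1005 FPKM of Solyc08g080200 (116 to 220), 45.3 FPKM of MS1 (1.74 to 4.76) and 2.55 FPKM of MYB103 (0.353 to 0.514). Its CYP703A2 level was 377 FPKM, against 9.95 to 67.6 FPKM. The part of tapetal RNA in these values was not tested.

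CT library 2 of 35S:nahG was high for Solyc02g080760 at 559 FPKM (156 to 204) and for Solyc06g030590 at 43.9 FPKM (3.07 to 8.07), and low for Solyc08g078890 at 13.2 FPKM (18.4 to 19.0) and Solyc12g005660 at 9.50 FPKM (11.5 to 11.8). CT library 1 of 35S:nahG was low for Solyc02g032910 at 848 FPKM (1402 to 1463). LTMH library 3 of 35S:asCCD7 was low for Solyc12g005660 at 1.04 FPKM (2.17 to 2.37). CT library 4 of Never ripe was high for Solyc09g066410 at 40.7 FPKM (21.8 to 24.4).

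In WT, CT library 2 was high for Solyc02g080760 at 467 FPKM (216 to 240) and Solyc01g099540 at 213 FPKM (11.6 to 44.6). CT library 3 was high for MS1 at 17.8 FPKM (3.38 to 4.76) and Solyc07g051980 at 0.809 FPKM (0.128 to 0.236). CT library 1 was low for Solyc01g066450 at 32.8 FPKM (36.0 to 36.4).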

How the results depend on the processing

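The list itself depended on the rule. It shared 139 genes with the list at a pseudocount of 1 CPM, 135 at 0.1 CPM, all but 2 without a CPM filter, 119 at a mean of 5 CPM, 146 with TMM, 146 with DESeq2 size factors and 108 without CT libraries 2 and 4 of 35S:asCCD7. With 1 library left out, 118 to 150 genes were shared (124 without LTMH library 4 of Never ripe), and 73 were in every such list. The count of genes called lower in LTMH in 35S:asCCD7 (71) was 109 with DESeq2, 131 with all 8 groups in 1 fit, 114 without CT libraries 2 and 4 and 25 to 117 with 1 library left out, lowest without CT replicate 1 or CT replicate 3 and highest without CT replicate 4. In Never ripe (90) it was 54 to 113 with 1 library left out, lowest without LTMH replicate 1 and highest without LTMH replicate 4, in 35S:nahG (144) at least 138 and in WT (145) 136 to 144. Against WT, the count in Never ripe (24) was 9 with LTMH libraries only and 21 to 31 with 1 library left out. In 35S:nahG (27) it was 15 with all 8 groups in 1 fit, 55 with CT libraries only, 41 without a fold change threshold and 24 to 37 with 1 library left out. In 35S:asCCD7 (15) it was 24 with DESeq2, 25 with all 8 groups in 1 fit, 2 with CT libraries only, 8 with LTMH libraries only and 8 to 32 with 1 library left out, lowest without WT CT replicate 1, WT LTMH replicate 3 or 35S:asCCD7 LTMH replicate 4 and highest without 35S:asCCD7 CT replicate 3. The cause of these changes was not tested. Except for single temperatures, the shares of all genes called under the alternatives are not given. A change in a count can therefore not be read as particular to the 150 genes. Replicate numbers were not taken to pair the samples. The 33 same-numbered pairs had correlations of deviations from −0.33 to 0.51, with 12 over 0.1. In 10 of these 33 pairs, the LTMH library or the library of the line correlated best with the same number in CT or in WT. The 4 CT pairs of 35S:asCCD7 and WT were all over 0.1 (0.14 to 0.48), and the LTMH pairs of that comparison were −0.10 to 0.21. With a replicate block the counts lower in LTMH were 40 in Never ripe, 136 in 35S:nahG, 28 in 35S:asCCD7 and 139 in WT, and the counts against WT were 23 in Never ripe, 31 in 35S:nahG and 21 in 35S:asCCD7. Of 2348 recomputed differences of the named genes 2347 were below 0, a sign that choosing genes by these differences nearly fixed in advance. The exception was Solyc01g009590 in 35S:asCCD7, whose difference of −0.91 was 0.12 without CT replicate 3 and −2.03 without CT replicate 4. Of 31 calls of named genes against WT, 22 were kept in every fit with 1 library left out. Low counts limit MYB103 and other genes with 0 reads in some libraries, 6 of the 150 in LTMH and 2 in CT.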

Other observations

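By identifier, chromosome 8 held 21 of the 150 genes among 1316 over the filter (1.60%), and chromosome 4 held 4 among 1479 (0.270%), against 0.822% over all genes. The list held 7 pairs of genes with neighbouring identifiers, HAP2 (Solyc08g080440) and Solyc08g080450 among them.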
